A study of Homo sapiens with 4 samples.

Results

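Expression of 9 genes of the acute-phase response, the fibrinogen chains and the complement system was examined in A549 cells: FGA, FGB, FGG, C3, C5, SERPINA1, SERPINA3, SAA1 and SAA2. They were taken by gene name from a count table of 64253 gene rows, where they filled 10 rows. SERPINA1 had a second identifier, ENSG00000277377, with 0 counts in each library, and its values below are those of ENSG00000197249. A549 is an established human lung adenocarcinoma cell line. One group, NFATc2, was transfected with the plasmid pENTER-NFATc2, and the other, NFATc2M, with pENTER-NFATc2M, whose product lacks a piece of the DNA binding domain. Each group had 2 libraries. Both groups were kept in OPNc-CM, a medium conditioned by HEK-293 T cells that express osteopontin isoform c, so each library carried an NFATc2 plasmid and met the same secreted proteins, and the contrast holds no library without them. The labels do not say whether replicates came from separate cultures, so a p-value here gauges the scatter among 4 libraries, some or all of which may be technical. The question put to the contrast was which genes differ between cells given NFATc2 and cells given the form that lacks the DNA binding piece.

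Acute-phase proteins are plasma proteins whose output by the liver changes during inflammation, mainly under interleukin 6, acting through STAT3, and interleukin 1. Liver-enriched factors such as those of the C/EBP family set the basal activity of many of their genes. Fibrinogen is built of the chains encoded by FGA, FGB and FGG and is turned into the fibrin of clots by thrombin. Complement C3 is the hub on which the activation routes of complement converge, and C5 starts the terminal route that ends in a membrane pore. C3 is also made locally by epithelial cells of the lung.

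The libraries held 21011786 to 23527259 gene counts each, and 17459 genes passed the filter on low counts. NFATC2 itself was counted 47791 and 58522 times with the wild-type plasmid and 54601 and 52689 times with NFATc2M (log2 fold change −0.08, adjusted p = 0.67, edgeR), and since both plasmids carry its sequence this count does not tell the groups apart. SPP1, the osteopontin gene, had a log2 fold change of 0.02 (adjusted p = 0.95, edgeR), which became −0.32 and passed with a replicate block and a correction for GC content and length together (adjusted p = 0.015, edgeR). Of the markers of A549 cells, 6 of 9 passed the filter, with ALDH1A1 at 69393 to 89219 counts and KRT8 at 48441 to 53963. CDKN2A and CDKN2B, which are deleted in A549, had 0 counts in each library. They are 2 of 3 genes listed as deleted, and the list summed to 0.092 to 0.323 CPM in a library. The lung epithelial markers NKX2-1, SFTPB and SFTPC had at most 4 counts in a library. Across all genes tested, 1508 passed an adjusted p of 0.05 with edgeR's quasi-likelihood test, which is 8.64%, 856 of them higher (4.90%) and 652 lower (3.73%) in NFATc2. Upper quartile scaling gave 662 higher and 864 lower and library size scaling 556 and 707, and the correction for GC content and length described with the methods gave 385 and 198. Without NFATc2M replicate 1 the count was 20, without NFATc2 replicate 2 it was 322 and without NFATc2 replicate 1 it was 598. The median log2 fold change of all genes tested was 0.00.

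Promoter windows from RefSeq, on GRCh38.p14 and reaching from 250 bases before to 50 bases after a transcript start, were found for 6 of the 9 genes, 9 windows in all. C3, SAA1 and SAA2 are not among the 6. Those of FGB, FGG, SERPINA3 and C5 are shown because they hold GGAAA, the core letters that NFAT proteins bind, and NFATc2 is the factor that the contrast is about. FGB, FGG and SERPINA3 were nearly silent here, and C5 was counted well enough to be tested. The capitals mark GGAAA, or TTTCC where it lies on the other strand.
FGB, chr4:154562730-154563029, plus strand: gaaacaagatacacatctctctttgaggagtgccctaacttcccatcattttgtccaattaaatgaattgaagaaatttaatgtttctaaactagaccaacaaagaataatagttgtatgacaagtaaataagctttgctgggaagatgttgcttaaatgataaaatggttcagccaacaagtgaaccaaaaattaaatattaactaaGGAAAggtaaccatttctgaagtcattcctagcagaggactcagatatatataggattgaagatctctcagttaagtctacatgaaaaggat
FGG, chr4:154612607-154612906, minus strand: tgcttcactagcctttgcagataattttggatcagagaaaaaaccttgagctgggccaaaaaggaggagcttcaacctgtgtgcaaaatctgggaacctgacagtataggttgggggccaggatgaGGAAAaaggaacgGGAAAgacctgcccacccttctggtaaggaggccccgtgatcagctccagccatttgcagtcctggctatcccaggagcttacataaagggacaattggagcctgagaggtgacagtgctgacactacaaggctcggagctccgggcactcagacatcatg
SERPINA3, chr14:94612141-94612440, plus strand: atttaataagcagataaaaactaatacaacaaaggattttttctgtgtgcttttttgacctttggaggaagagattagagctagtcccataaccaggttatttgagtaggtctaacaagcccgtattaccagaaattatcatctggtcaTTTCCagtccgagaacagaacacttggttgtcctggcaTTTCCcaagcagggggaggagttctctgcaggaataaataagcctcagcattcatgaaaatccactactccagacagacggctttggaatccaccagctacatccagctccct
C5, chr9:121074816-121075115, minus strand: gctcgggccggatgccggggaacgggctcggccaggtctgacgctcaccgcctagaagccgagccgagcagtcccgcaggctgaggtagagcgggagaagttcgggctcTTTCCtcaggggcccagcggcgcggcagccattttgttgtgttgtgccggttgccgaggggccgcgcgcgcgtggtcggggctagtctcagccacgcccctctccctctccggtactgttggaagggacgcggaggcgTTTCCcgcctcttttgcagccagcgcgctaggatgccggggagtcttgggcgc
Counted from the transcript start of the window shown, the core began at −42 in FGB, at −124 and −111 in FGG, at −101 and −63 in SERPINA3 and at −141 and −3 in C5. In windows not shown it began at −73 in FGB and, at chr9:121050226-121050525, at −102 and 10 in C5. The GGAAA core occurred in 6 of the 9 windows, those of FGB, FGG, C5 and SERPINA3, against 61.2% of 35116 promoters on either strand. FGB and C5 had 2 windows each, and those of FGB overlap almost whole, so that this count is not of 6 separate sequences. A letter match is a description of the sequence, and binding was not measured.

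Only 2 of the 9 genes, C3 and C5, were counted well enough to enter the test, and neither differed between the groups by it. The other 7, which encode fibrinogen, the serpins and serum amyloid A, had 2 to 28 counts each over the 4 libraries together. In levels per length, in CPM (the count scaled to a common library total) per kilobase of exon, averaged over the libraries, C3 stood at 20.5 (range 19.0 to 21.4) and C5 at 0.513 (range 0.40 to 0.558). The level of C3 was 39.9 times that of C5, or 47.7 times with the longest transcript as the length. It lay above the levels of 90.1% of 19550 protein-coding genes, and C5 lay above 41.2%.

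**Figure D1:**
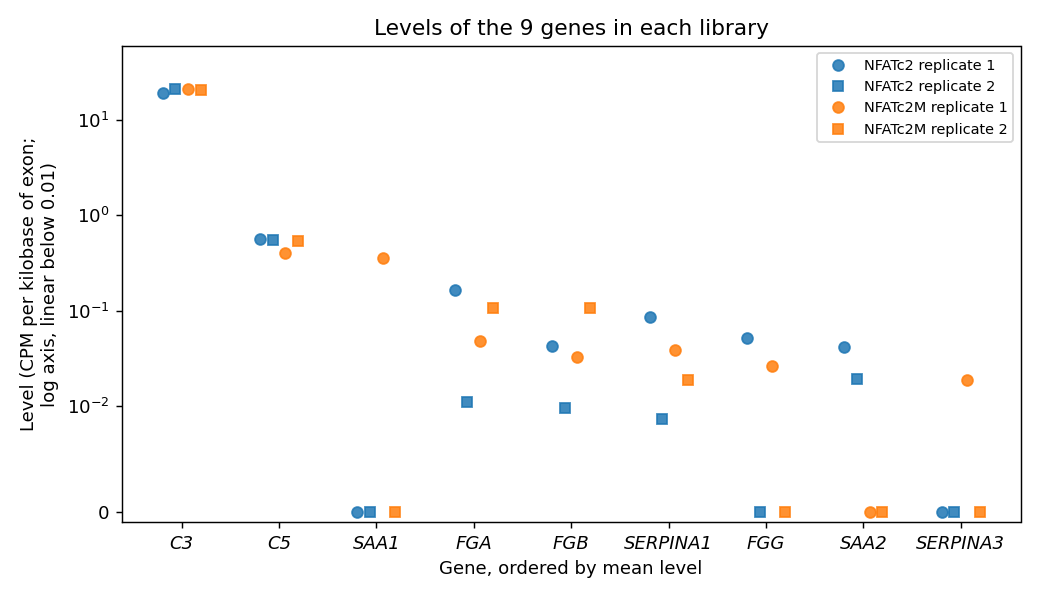
Level of each of the 9 genes in each library, in CPM per kilobase of exon, on an axis that is logarithmic above 0.01 and linear below it. Circles are replicate 1 and squares replicate 2 of NFATc2 (blue) and NFATc2M (orange), and C3 and C5 stand apart from the other 7 genes, which lie at or below 0.356.

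The other levels followed in the order SAA1 (0.0889), FGA (0.0826), FGB (0.0475), SERPINA1 (0.0378), FGG (0.0194), SAA2 (0.0151) and SERPINA3 (0.00472). Neighbours in this order did not differ beyond the range of the 4 libraries, except for C3 above C5 and C5 above SAA1. The level of SAA1 rests on 8 counts in a single library. The order was the same with the longest transcript as the length. SAA1 lay above 31.8% of the protein-coding genes and SERPINA3 above 20.7%, where 3557 of those genes had 0 counts in all libraries and 3127 had 1 to 50 counts in total.

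C3, the source of the opsonin C3b and of the anaphylatoxin C3a, lies at chr19:6677704-6730562 (GRCh38, ENSG00000125730). Its counts were 4766 and 5657 in NFATc2 and 5256 and 5137 in NFATc2M. Scaled to library size, these were 220 and 243 CPM in NFATc2 and 248 and 237 CPM in NFATc2M. The groups overlapped, and the highest library exceeded the lowest by a factor of 1.13. The means were 232 ± 16.4 CPM in NFATc2 and 243 ± 7.82 CPM in NFATc2M (SD, n = 2). The log2 fold change of C3 in NFATc2 over NFATc2M was −0.07 (SE 0.11, 95% interval −0.27 to 0.14, adjusted p = 0.77, edgeR). In a bulk culture, fewer cells that make a transcript and less of it per cell cannot be told apart.

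C5, the source of the anaphylatoxin C5a and of C5b, lies at chr9:120932987-121075195 (ENSG00000106804). Its counts were 204 and 217 in NFATc2 and 143 and 198 in NFATc2M, or 9.43 and 9.34 CPM against 6.75 and 9.14 CPM. The NFATc2 libraries lay above the NFATc2M libraries without overlap, the nearest pair being 9.34 and 9.14 CPM, and NFATc2M replicate 1 was the low one. Of all genes tested, 53.1% had groups that did not overlap, 27.2% with NFATc2 above and 26.0% with it below. The means were 9.38 ± 0.064 CPM and 7.95 ± 1.69 CPM (SD, n = 2). The log2 fold change of C5 was 0.24 (SE 0.22, 95% interval −0.19 to 0.67, adjusted p = 0.55, edgeR). C5 thus had the wider interval, with 762 counts in total against 20816 for C3.

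**Figure D2:**
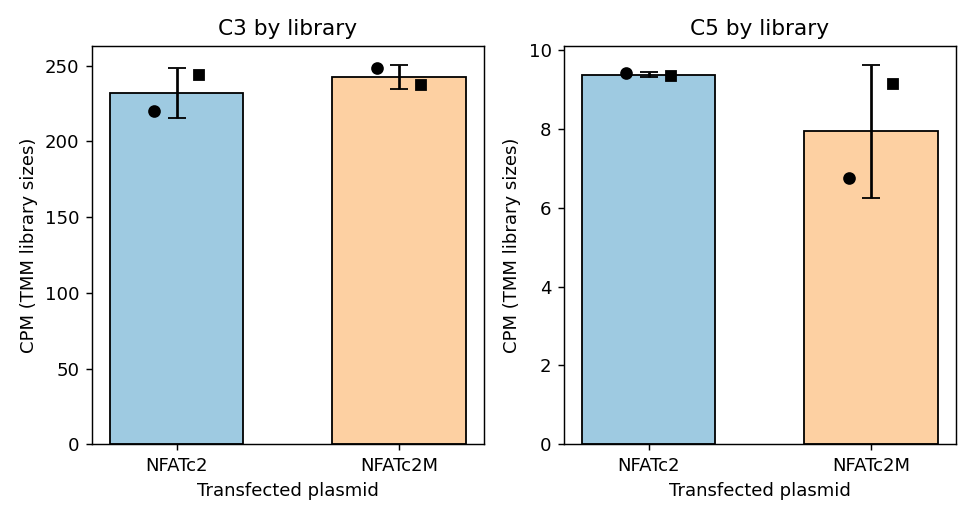
CPM of C3 (left) and C5 (right) in the NFATc2 and NFATc2M libraries. Bars are means of 2 libraries from 0, lines the SD, circles replicate 1 and squares replicate 2. The groups overlap for C3, and for C5 NFATc2M replicate 1, at 6.75 CPM, sits below the other libraries, which lie between 9.14 and 9.43.

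Of these 2 genes, 0 passed the adjusted p of 0.05 with edgeR, against 8.64% of all genes tested, 0 had an unadjusted p under 0.05, and limma voom called 0. DESeq2 did not call C3 (adjusted p = 0.73) and gave C5 no adjusted p. The direction of C3 turned with a correction for GC content and length (log2 fold change 0.05, adjusted p = 0.79, edgeR). The same correction brought C5 to 0.06 (adjusted p = 0.92, edgeR). Without NFATc2 replicate 1 C3 had 0.0050, and C5 had 0.03 without NFATc2M replicate 1 and 0.47 without NFATc2M replicate 2 (adjusted p = 0.26, edgeR). Over the 15 alternative settings the log2 fold change of C3 ranged from −0.15 to 0.05 and that of C5 from 0.03 to 0.47, and neither passed in any that gave an adjusted p.

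The fibrinogen genes lie side by side on chromosome 4, FGB at chr4:154563011-154572807, FGA at chr4:154583126-154590742 and FGG at chr4:154604134-154612967. FGA, the alpha chain, from which thrombin releases fibrinopeptide A, had 14 and 1 counts in NFATc2 and 4 and 9 in NFATc2M. FGB, the beta chain, from which fibrinopeptide B is released, had 4 and 1 counts in NFATc2 and 3 and 10 in NFATc2M. FGG, the gamma chain, had 4 and 0 counts in NFATc2 and 2 and 0 in NFATc2M. The groups overlapped for each of the 3 chains. The chains summed to 22 and 2 counts in NFATc2 and to 9 and 19 in NFATc2M. The spread between replicates was larger than that between groups: 14 counts of FGA have an exact 95% Poisson interval of 7.65 to 23.5 and 1 count one of 0.0253 to 5.57, and both are NFATc2 libraries.

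Ratios of the depth-scaled group sums, NFATc2 over NFATc2M, were 1.10 for FGA (exact 95% interval 0.489 to 2.52), 0.367 for FGB (0.103 to 1.10) and 1.91 for FGG (0.274 to 21.1). These intervals cover counting error only, and each of them holds 1. A change in a fibrinogen chain was thus not detected. The spread between replicates is not in these intervals, so their limits do not bound the size of a change.

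SERPINA1 encodes alpha-1-antitrypsin, the main plasma inhibitor of neutrophil elastase, and lies at chr14:94376747-94390693. It had 9 and 1 counts in NFATc2 and 4 and 2 in NFATc2M, and the NFATc2 libraries held both the highest and the lowest. Its ratio of group sums was 1.59 (exact 95% interval 0.524 to 5.33, counting error only). SERPINA3 encodes alpha-1-antichymotrypsin, an inhibitor of chymotrypsin-like proteases, and lies at chr14:94612384-94624055. It had 0 and 0 counts in NFATc2 and 2 and 0 in NFATc2M. A count of 0 allows up to 3 counts, or 0.129 to 0.142 CPM by library, and both group sums of SERPINA3 lay at or under that floor, so no fold was formed.

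SAA1 and SAA2 encode the serum amyloid A apolipoproteins that rise most steeply in the acute phase, and lie at chr11:18266260-18269977 and chr11:18239223-18248668. SAA1 had 0 and 0 counts in NFATc2 and 8 and 0 in NFATc2M. The exact 95% interval of its ratio of group sums ran from 0 to 0.559 (counting error only), and all 8 counts were in NFATc2M replicate 1. Without that library, SAA1 was at 0 in each of the others. Fitted with no filter, SAA1 had an unadjusted p of 0.055 and an adjusted p of 0.35 (edgeR). SAA2 had 2 and 1 counts in NFATc2 and 0 and 0 in NFATc2M, with both group sums at or under the floor. Without the filter, 0 of the 7 low genes passed, with adjusted p-values from 0.35 to 0.95 (edgeR), and DESeq2 gave them no adjusted p.

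Summed over the 7 low genes, NFATc2 replicate 1 had 33 counts, NFATc2 replicate 2 had 4, NFATc2M replicate 1 had 23 and NFATc2M replicate 2 had 21. NFATc2 replicate 2 was the deepest library by gene counts and yet the lowest in this sum and the lowest or joint lowest for FGA, FGB, FGG and SERPINA1. The highest library exceeded the lowest by a factor of 15.0 for FGA, 10.7 for FGB and 9.67 for SERPINA1, against 1.40 for C5 and 1.13 for C3. C3 and C5 did not run together over the libraries, since C3 was highest, at 248 CPM, in NFATc2M replicate 1, where C5 was lowest, at 6.75 CPM. The root mean square difference of log2 CPM centred on each gene was 0.25 for this pair, which is the smallest among the 5 genes counted in every library but follows from the small spread of both and is no sign of a shared pattern.

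Sequence shared with other genes bears on some of these counts. No exon of FGA, FGB, FGG or SERPINA1 overlaps an exon of another gene, and none of their 100-base transcript windows recurs in one. For C3, 11.7% of the exonic length is shared with the long noncoding RNA AC008760.2, which had 2 to 12 counts in a library. For C5, 2.42% is shared with CNTRL on the opposite strand, which had 329 to 454 counts (log2 fold change 0.16, adjusted p = 0.62, edgeR). The strand setting of the counting is not given in the sources used here, so reads of C5 and CNTRL from that stretch may not be separated. SAA1 shares 20.1% of its windows with other genes, 246 of them with SAA2, and SAA2 shares 14.9%. SERPINA3 shares 28.1% with AL049839.2, which had 0 counts. C3 also shares 9.64% of its windows with AC008760.2. Reads that fall in shared windows or exons could have been left uncounted, so the counts of C3, SAA1, SAA2 and SERPINA3 are uncertain in this respect.

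Some genes next to the low ones were well expressed and others were at 0. Their calls stand beside the 8.64% of all genes tested that were called. Within 500 kb of the fibrinogen genes start 4 other protein-coding genes, of which PLRG1, a splicing factor, had 820 to 1149 counts and a level of 8.45 CPM per kilobase, 2 had 0 counts and DCHS2 had 2 to 8. Around SERPINA1 and SERPINA3, 9 of 20 neighbours passed the filter and 6 were at 0, and 0 of the 9 passed the test. Around SAA1 and SAA2, 10 of 19 passed the filter and 1 rose, LDHA, a lactate dehydrogenase chain (log2 fold change 0.35, adjusted p = 0.016, edgeR). Around C3, 0 of 20 tested neighbours of 27 passed the test. Around C5, 1 of 10 tested neighbours rose, RAB14, a GTPase of endosomal traffic (log2 fold change 0.52, SE 0.12, adjusted p = 0.0028, edgeR). RAB14 had 1603 and 1689 counts in NFATc2 and 973 and 1228 in NFATc2M, and its call was kept with each alternative scaling but lost on leaving out any single library other than NFATc2M replicate 2 (adjusted p from 0.061 to 0.33, edgeR). LDHA lost its call with the correction for GC content and length (adjusted p = 0.096, edgeR) and without each library in turn (adjusted p from 0.055 to 0.43, edgeR).

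**Figure D3:**
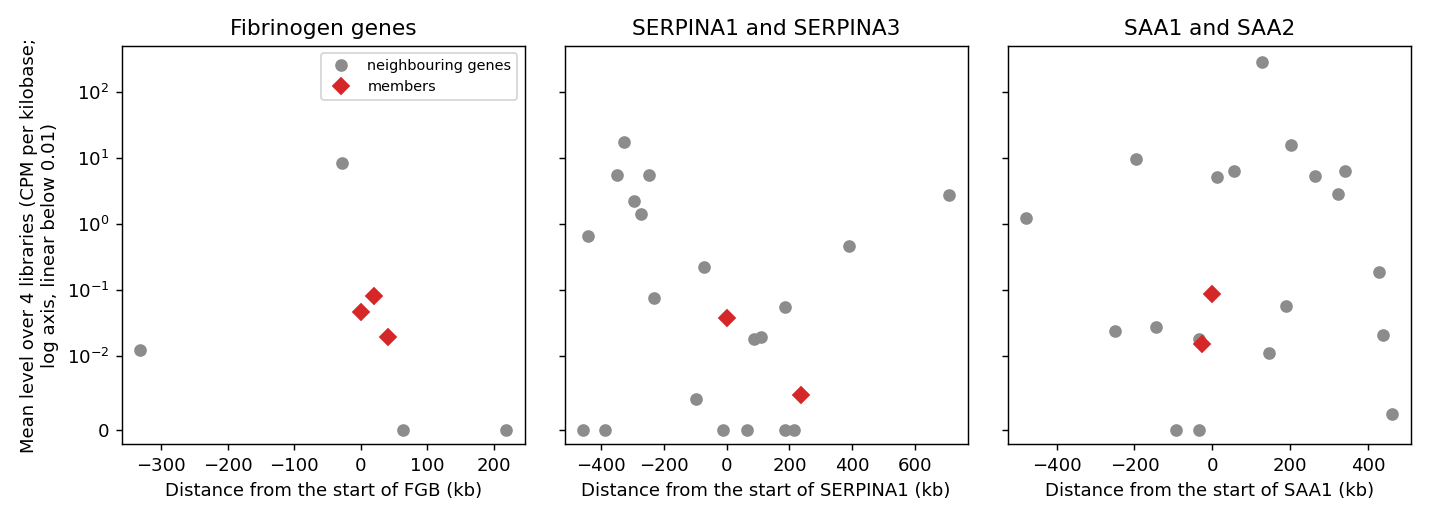
Mean level over the 4 libraries, in CPM per kilobase on an axis logarithmic above 0.01 and linear below, of protein-coding genes within 500 kb of the fibrinogen genes, of SERPINA1 and SERPINA3 and of SAA1 and SAA2, against the distance of their starts from the start of FGB, SERPINA1 and SAA1 in kilobases. The red diamonds (FGA, FGB, FGG, SERPINA1, SERPINA3, SAA1 and SAA2) all lie at or below 0.0889, while the grey neighbours range from 0 to well above them, PLRG1 at 8.45 among these.

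Markers of other cells were read beside these levels. Of 12 hepatocyte markers, 6 had 0 counts in every library, among them ALB, TTR and AHSG, and 2 passed the filter, CPS1 at 495 to 684 counts and ASGR1 at 7 to 19. The summed level of the list was 28.3 and 30.0 CPM in NFATc2 and 24.3 and 25.3 CPM in NFATc2M. Of 10 leukocyte markers, 5 had 0 counts in every library, PTPRC among them, and the sum was 7.53 and 9.73 CPM in NFATc2 and 9.54 and 9.42 CPM in NFATc2M. Of 10 markers of HEK-293 T cells, the source of the medium, 9 passed the filter and 0 passed the test, against 8.64% of all genes tested. Their sum was 143 and 160 CPM in NFATc2 and 139 and 136 CPM in NFATc2M. Each library met the medium, which the paper describes as collected supernatant that was freeze concentrated. It also describes washing the cell pellets with PBS before RNA was extracted. From the counts alone, A549 and HEK-293 T cells cannot be told apart as the source of these marker counts, which was not tested. The part of other cells in the levels of C3 and C5 was not tested.

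The other complement components, from C1 to C9 with the factors of the alternative and lectin routes, were low with few exceptions. Of 27 genes, 14 had 0 counts in every library and 10 were tested. Of these 10, 0 rose, 1 fell and 9 did not pass, where 8.64% of all genes tested passed. The median log2 fold change of the 10 was −0.32, and 0 of the 10 had a positive value, against a median of 0.00 and 8739 positive values among the 17459 genes tested. With the correction for GC content and length the median of the 10 was −0.18. Many of the 10 had low counts: C2, C8G, CFB, CFP, MASP2 and COLEC11 had 5 to 42 counts in a library. The 95% interval of each of these genes held 0. CFD, the serine protease factor D that cleaves factor B once it is bound to C3b, fell. It had 318 and 293 counts in NFATc2 and 492 and 409 in NFATc2M, without overlap (log2 fold change −0.63, SE 0.17, adjusted p = 0.012, edgeR). CFD is rich in GC (63.3%), and with the correction for GC content and length its log2 fold change was −0.28 (adjusted p = 0.31, edgeR). Its call was also lost without NFATc2 replicate 2 (−0.53, adjusted p = 0.23, edgeR) or NFATc2M replicate 1 (−0.48, adjusted p = 0.43, edgeR). C1R and C1S, the proteases of the C1 complex, had log2 fold changes of −0.35 (adjusted p = 0.081, edgeR) and −0.32 (adjusted p = 0.075, edgeR), with 860 and 974 against 1166 and 1056 counts for C1R and 1201 and 1530 against 1559 and 1698 for C1S. Of the 15 alternative settings, C1R passed in 1 and C1S in 4. With the correction for GC content and length C1S passed (−0.35, adjusted p = 0.036, edgeR) and C1R did not (−0.21, adjusted p = 0.27, edgeR). C1S also passed with the replicate block, alone (adjusted p = 0.046, edgeR) and with that correction (adjusted p = 0.013, edgeR). With upper quartile scaling both C1R (adjusted p = 0.048, edgeR) and C1S (adjusted p = 0.044, edgeR) passed. Neither passed with DESeq2 (adjusted p = 0.096 for C1R and 0.10 for C1S).

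Among 28 regulators and receptors of complement, 12 were tested and 0 passed, against 8.64% of all genes tested. The median log2 fold change of the 12 was 0.04. With the correction for GC content and length 1 of the 12 fell and the median was −0.05. Adding the replicate block to that correction gave 1 higher and 1 lower, with a median of −0.09. The most abundant were CLU, the chaperone clusterin, which binds terminal complement complexes (log2 fold change 0.03, adjusted p = 0.91, edgeR), and CD59, which blocks the membrane pore (log2 fold change 0.21, adjusted p = 0.21, edgeR). The sign of CLU turned under library size and upper quartile scaling. The receptors for the fragments of C5 and C3 had low counts, with 13 to 38 for C5AR1 and 1 to 7 for C3AR1. With C3 at 20.5 CPM per kilobase, C1R, C1S and CFD were at 7.99, 8.24 and 9.55, and factor B, which pairs with C3b in the alternative route, was at 0.315 (CFB, 27 to 42 counts).

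**Figure D4:**
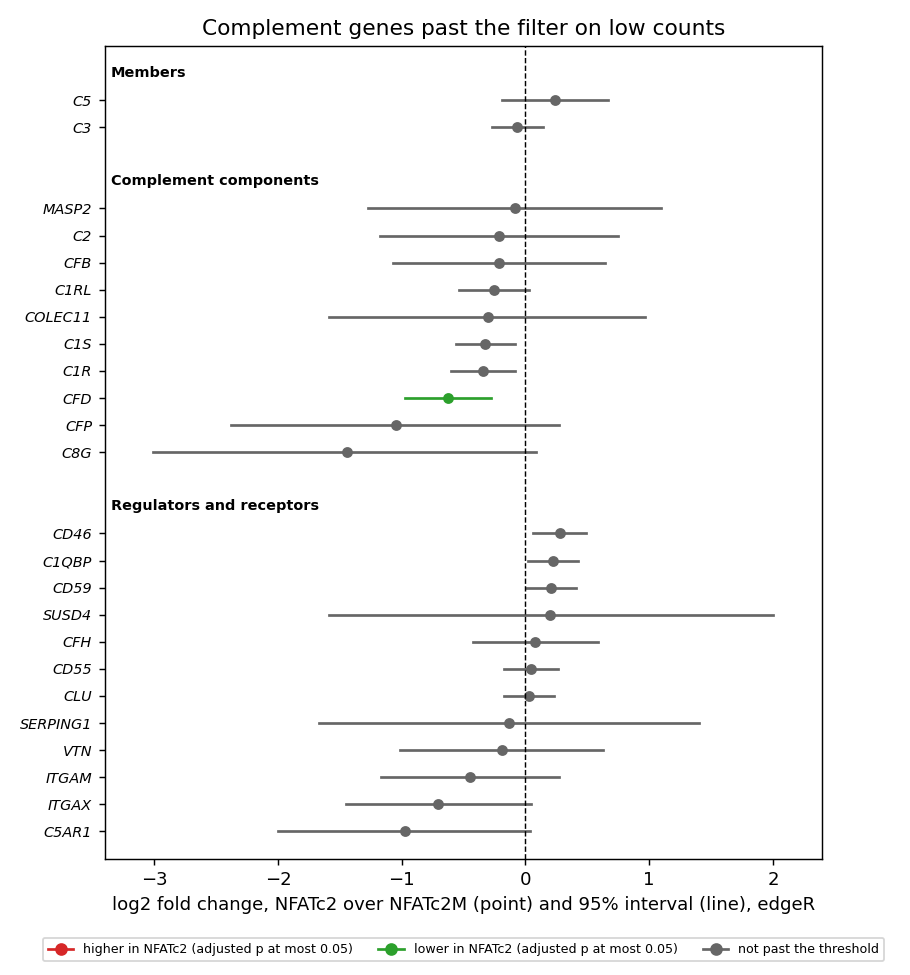
Log2 fold change, NFATc2 over NFATc2M, of the complement genes past the filter on low counts, with 95% intervals from edgeR. Points are genes, ordered by value within each group, and green marks an adjusted p of at most 0.05. CFD, at −0.63, is the one gene past the threshold, and the 10 components below C3 and C5 all lie left of 0.

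Most other acute-phase genes were low as well. Of 22, 17 were below the filter, 7 of which had 0 counts in every library, CRP and HP among them. The other 5 were tested, and 0 rose, 1 fell and 4 did not pass, where 8.64% of all genes tested passed. Their median log2 fold change was −0.69. That median was −0.17 without NFATc2M replicate 2 and −0.44 without NFATc2M replicate 1. The gene that fell was LCN2, lipocalin 2, which binds bacterial siderophores, with 335 and 296 counts in NFATc2 and 532 and 485 in NFATc2M (log2 fold change −0.75, SE 0.17, adjusted p = 0.0015, edgeR). With the correction for GC content and length LCN2 had −0.49 (adjusted p = 0.054, edgeR), and its call was lost without NFATc2 replicate 2 (−0.63, adjusted p = 0.11) or NFATc2M replicate 1 (−0.68, adjusted p = 0.23). Of 9 other serpins of clade A, 4 were at 0 in every library and 0 passed the filter, the highest being SERPINA6, the cortisol carrier, at 8 to 11 counts and SERPINA5 at 0 to 10. Of 24 coagulation genes, 12 were tested and 1 rose, against 4.90% of all genes tested. This was TFPI, an inhibitor of the tissue factor route. It had 1742 and 1800 counts in NFATc2 and 1168 and 1400 in NFATc2M (log2 fold change 0.40, adjusted p = 0.022, edgeR). That call was lost with the correction for GC content and length (0.16, adjusted p = 0.36, edgeR) and on leaving out any single library other than NFATc2M replicate 2 (adjusted p from 0.17 to 0.45).

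Genes of the signalling that leads to acute-phase promoters, and of factors that act there, were present. Of 31 genes, 30 were tested, 3 rose and 4 fell, against 4.90% and 3.73% of all genes tested. Their median log2 fold change was −0.03. With the correction for GC content and length 1 rose and 0 fell, and the median was 0.06. TYK2 fell (log2 fold change −0.35, adjusted p = 0.042, edgeR), and NR3C1 (0.33, adjusted p = 0.045, edgeR) and IL6ST (0.32, adjusted p = 0.044, edgeR) rose. These 3 of the 7 called genes passed in 7, 4 and 6 of the 15 alternative settings. Leaving out NFATc2 replicate 2 or NFATc2M replicate 1 left 0 of the 7 called, leaving out NFATc2 replicate 1 gave 1 higher and 1 lower, and fitting without robust estimation gave 1 higher and 3 lower. LIF, a cytokine of the interleukin 6 family, fell (log2 fold change −0.47, adjusted p = 0.0024, edgeR), as did CEBPB, a C/EBP factor (−0.38, adjusted p = 0.010, edgeR), and SOCS3, a feedback inhibitor of STAT3 (−0.40, adjusted p = 0.023, edgeR). JAK1, a receptor-bound kinase upstream of STAT3, rose (0.37, adjusted p = 0.013, edgeR). With the correction for GC content and length LIF (−0.25), CEBPB (−0.02) and SOCS3 (−0.11) no longer passed, and JAK1 did (0.37, adjusted p = 0.0094, edgeR). JAK1 and LIF lost their calls without NFATc2 replicate 2 (adjusted p = 0.38 and 0.16, edgeR) or NFATc2M replicate 1 (0.44 and 0.27), and CEBPB and SOCS3 without either of these or NFATc2 replicate 1 (adjusted p from 0.099 to 0.60). SOCS3 also missed the threshold with DESeq2 (adjusted p = 0.054). HNF4A, a nuclear receptor of the liver, had 348 to 417 counts, STAT3 3999 to 5358 and IL6 349 to 422, and none of these 3 passed the test.

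Genes for the secretion of these proteins were all tested, 15 of 15. Of these 2 rose and 0 fell, against 4.90% and 3.73% of all genes tested, and the median log2 fold change was 0.16. With the correction for GC content and length the median was 0.06. LMAN1, a cargo receptor that carries alpha-1-antitrypsin out of the endoplasmic reticulum, had 3220 and 3262 counts in NFATc2 and 1973 and 2479 in NFATc2M (log2 fold change 0.48, adjusted p = 0.0022, edgeR). CANX, the chaperone calnexin, was the other (0.34, adjusted p = 0.020, edgeR). Neither passed with the correction for GC content and length (0.14 for LMAN1 and 0.22 for CANX). LMAN1 lost its call without NFATc2 replicate 1 (adjusted p = 0.083, edgeR) or NFATc2M replicate 1 (0.34), and CANX on leaving out any single library other than NFATc2M replicate 2 (0.15 to 0.51) or with upper quartile scaling (0.054). Of 14 receptors and target proteases of the 9 proteins, 6 were tested and 0 passed, the most abundant being the integrin chains ITGB1 (0.20, adjusted p = 0.21, edgeR) and ITGAV (0.16, adjusted p = 0.37, edgeR).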

How the data were processed

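Messenger RNA of A549 cells was sequenced in 4 libraries, 2 of each group, after transfection and culture in OPNc-CM. The deposited values are raw read counts per gene, which the authors made by aligning reads with HISAT2 to GRCh38, sorting with SAMtools 1.18 and counting with HTSeq 0.11.2 on Ensembl release 94 (tools from the submitters' processing notes). The HISAT2 version and the strand setting are not given in the sources used here. The 5 HTSeq summary rows held 56.4 to 57.4% of each column and stayed out of library sizes. A second table has 4 value columns without a sample name, which were not used.

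Genes were filtered with filterByExpr, scaled by TMM and tested with edgeR 4.0.16 (robust quasi-likelihood F test, group only) in R 4.3.3. P-values were adjusted by Benjamini-Hochberg over all 17459 genes tested, and an adjusted p of at most 0.05 was called. DESeq2 1.42.0, limma 3.58.1 voom, other scalings and filters, a replicate block, offsets for GC content and exonic length (splines with 5 degrees of freedom) and leaving out each library were alternatives. The edgeR step was also run on simulated counts with a fixed dispersion, in which only well-counted genes were changed. That run does not bear on the genes below the filter or on differences between these libraries. Exonic length, position and overlap came from GENCODE release 44 on GRCh38, and promoters from RefSeq. Levels are CPM on TMM library sizes, divided by the kilobases of merged exons where genes are compared. Ratios of group sums have exact 95% intervals for counting error only, and a count of 0 was read as up to 3 counts. Figures were drawn with matplotlib 3.10.9 in Python 3.11.15.

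The members and all gene lists were chosen with earlier results of these data known. Named were all 9 members, in each list up to 4 called genes with the smallest p or, with none called, the 2 with the highest mean count, called neighbours within 500 kb, and NFATC2 and SPP1. C1R, C1S, CFB, C5AR1, C3AR1, CRP, HP, PLRG1, DCHS2, IL6, STAT3, CD46, IL6ST, HNF4A, TYK2, NR3C1, genes that share exons with members and the cell markers were named after their values were seen. So were C2, C8G, CFP, MASP2 and COLEC11. The search for shared transcript windows was added after seeing the data, and a comparison of proteins was not run. Some items of the lists and motifs are not reported here.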

Additional observations from a re-analysis of the deposited data

How the results depend on the processing

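Neither C3 nor C5 passed an adjusted p of 0.05 under any of the 15 alternatives, except that DESeq2 gave C5 no adjusted p. The log2 fold change of C3 turned positive with the GC and length offset (0.051), with that offset and the replicate block (0.049) and without NFATc2 replicate 1 (0.0050), against −0.07, and was −0.15 without NFATc2 replicate 2. The level of C3 was 45.4 and that of C5 0.951 CPM per kilobase with the longest transcript as the length. The count of genes called, 1508, was 583 with the GC and length offset and 871 with offset and block (579 higher and 292 lower). Leaving out a library gave 20 to 1529 genes, with 598 without NFATc2 replicate 1 (242 higher and 356 lower), 322 without NFATc2 replicate 2, 20 without NFATc2M replicate 1 and 1529 without NFATc2M replicate 2. DESeq2 called 1025 and limma voom 1394. With the group of a left-out library at 1 sample, that sample was assumed to vary like the other group. The cause of these shifts was not tested. The replicate block called 1759 genes (1022 higher and 737 lower). Same-numbered libraries deviated together with an r of 0.04 over 17459 genes (genes are no replicates), and with 2 pairs the libraries share only a number.

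Among named genes that reversed, IL6ST had −0.021 with the offset, alone and with the block, ITGAV −0.16 in both, and CD46 −0.041 and −0.039. Their log2 fold changes in the main fit were 0.32, 0.16 and 0.28. NFATC2 had 0.0079 without NFATc2 replicate 1 and −0.19 without NFATc2 replicate 2. CLU had −0.0090 with upper quartile scaling, −0.0045 with library size scaling and −0.014 to 0.058 on leaving out a library. SPP1 had −0.020 and −0.016 with those scalings, −0.34 and −0.32 with the offset and with offset and block (adjusted p = 0.015 in the latter, edgeR), −0.0071 without NFATc2 replicate 2 and −0.042 to 0.065 over all 4 left-out libraries. Depth limits the 7 genes below the filter, where 1 library can hold most of the counts.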
